A study of Mus musculus with 11 samples.

Results

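The sarcomere is the repeating contractile unit of heart muscle, and 37 of its genes were followed here among 55487 gene identifiers in the count table. They were chosen by name, as thick-filament, thin-filament, titin and M-band, Z-disc and intermediate-filament genes, and all 37 had a row and passed the filter on low counts. The libraries were made from total RNA of hearts of female C57BL/6NTac mice, an inbred strain, put on their diets at 8 weeks of age for 24 weeks. The obese + cocktail group (n = 3) ate an obesogenic diet, with 60.3% of the energy of its solid part from fat plus sweetened condensed milk. From week 16 its mice were gavaged on 3 days a week with 2 agents in 10% PEG400, dasatinib (5 mg/kg) plus quercetin (50 mg/kg). The kinase inhibitor dasatinib and the flavonoid quercetin are given together as a senolytic, a treatment meant to clear senescent cells. The obese group (n = 4) ate the same diet and received the PEG400 vehicle. The control diet group (n = 4) had 10.4% of its energy from fat, and the labels give no gavage for it. No label ties a library to its own animal, so the tests weigh differences against spread among libraries, part of which may be technical.

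Myosin thick filaments pull on actin thin filaments when calcium binds the troponin complex, which sits on tropomyosin along the actin strand. Titin runs from the Z-disc to the M-band and acts as a spring, myomesins tie thick filaments together at the M-band, and alpha-actinin ties thin filaments together at the Z-disc. Adult mouse ventricle runs mainly on the fast alpha-myosin encoded by Myh6, and a shift toward the fetal, slower beta-myosin of Myh7 is a known feature of the stressed rodent heart.

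The deposited counts summed to 64.2 to 72.3 M in the cocktail libraries, 52.7 to 67.2 M in obese libraries and 73.1 to 103 M in control-diet libraries. Counts of the mitochondrial chromosome took 17.8 to 22.4% of the total in cocktail libraries, 21.4 to 24.5% in obese libraries and 28.2 to 32.3% in control-diet libraries. Genes of the sense-intronic and TEC classes, taken here as a measure of unspliced RNA, took 0.509 to 0.671% in cocktail libraries, 0.663 to 0.811% in obese libraries and 0.286 to 0.590% in control-diet libraries. The obese and control-diet ranges of that share did not overlap. Atrial marker genes summed to 90.6, 2956 and 5988 CPM in cocktail replicates 1 to 3, 59.9, 182, 2299.9 and 265 CPM in obese replicates 1 to 4 and 74.4, 75.1, 72.0 and 138 CPM in control-diet replicates 1 to 4. Cocktail replicates 2 and 3 and obese replicate 3 therefore stood apart from the other libraries in atrial RNA. Cardiomyocyte markers outside the 37 genes summed to 19486 to 23575 CPM, 15589.7 to 25242 CPM and 22427 to 34272 CPM in cocktail, obese and control-diet libraries, so the labelled tissue carried its defining markers. Levels are CPM, counts scaled to a common library size, by TMM scaling, which sets library sizes on the assumption that most genes do not change. Values of a group follow in the order of its replicate numbers. In bulk tissue, fewer cells of a type and less RNA per cell cannot be told apart.

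In obese against control-diet hearts, 18 of the 37 sarcomere genes were lower and 1 was higher under TMM scaling (edgeR's quasi-likelihood test, Benjamini-Hochberg adjusted p under 0.05 over 23779 genes), against 5 lower and 5 higher when libraries were scaled by their totals alone. The M-band gene Myom2, the Z-disc genes Myoz2 and Actn2, the light chain Myl3 and the intermediate filament gene Des were called lower under all 4 scalings tried, and the myosin gene Myh7b was called higher under all 4. Among all genes, 15.7% were called lower and 14.4% higher under TMM scaling, against 4.04% and 38.1% under library totals. Among the 1080 genes with a mean of at least 100 CPM, 50.6% were called lower and 6.11% higher, and of the 28 sarcomere genes in that class 17 were called lower (60.7%) and 0 higher. The share lower was thus 48.6% of the 37 genes, nearer to that of highly expressed genes than to that of all genes, and a difference from the highly expressed genes was not tested. The median log2 fold change of the 37 genes was -0.43, against 0.11 over all genes and -0.38 over genes of at least 100 CPM. Obese libraries lay wholly below control-diet libraries for 14 of the genes and wholly above for 1, against 14.7% and 13.8% of all genes, and the groups overlapped for the other 22. Markers of other cell types and of cardiomyocytes moved as well. Of 14 cardiomyocyte markers outside the 37 genes, 5 were lower and 0 higher in obese hearts under TMM scaling (median log2 fold change -0.34), against 3 lower and 4 higher under library totals. Of 7 endothelial markers, 3 were lower and 0 higher under TMM scaling, with sums of 674 to 835 CPM in obese and 867 to 1021 CPM in control-diet libraries, and under library totals 0 were lower and 1 higher. Of 7 adipocyte markers, 4 were higher and 0 lower under TMM scaling (6 higher under library totals), with sums of 0.668 to 9.34 CPM in obese and 0.425 to 0.765 CPM in control-diet libraries. Of 7 smooth muscle markers, 1 was higher and 0 lower under TMM scaling, against 2 higher under library totals. Their sums were 353 to 508 CPM in obese and 282 to 294 CPM in control-diet libraries. Of 7 fibroblast and 7 erythroid markers, 1 each was higher and 0 lower under TMM scaling, against 3 and 5 higher under library totals. The part of these cell types in the sarcomere values was not tested.

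**Figure D1:**
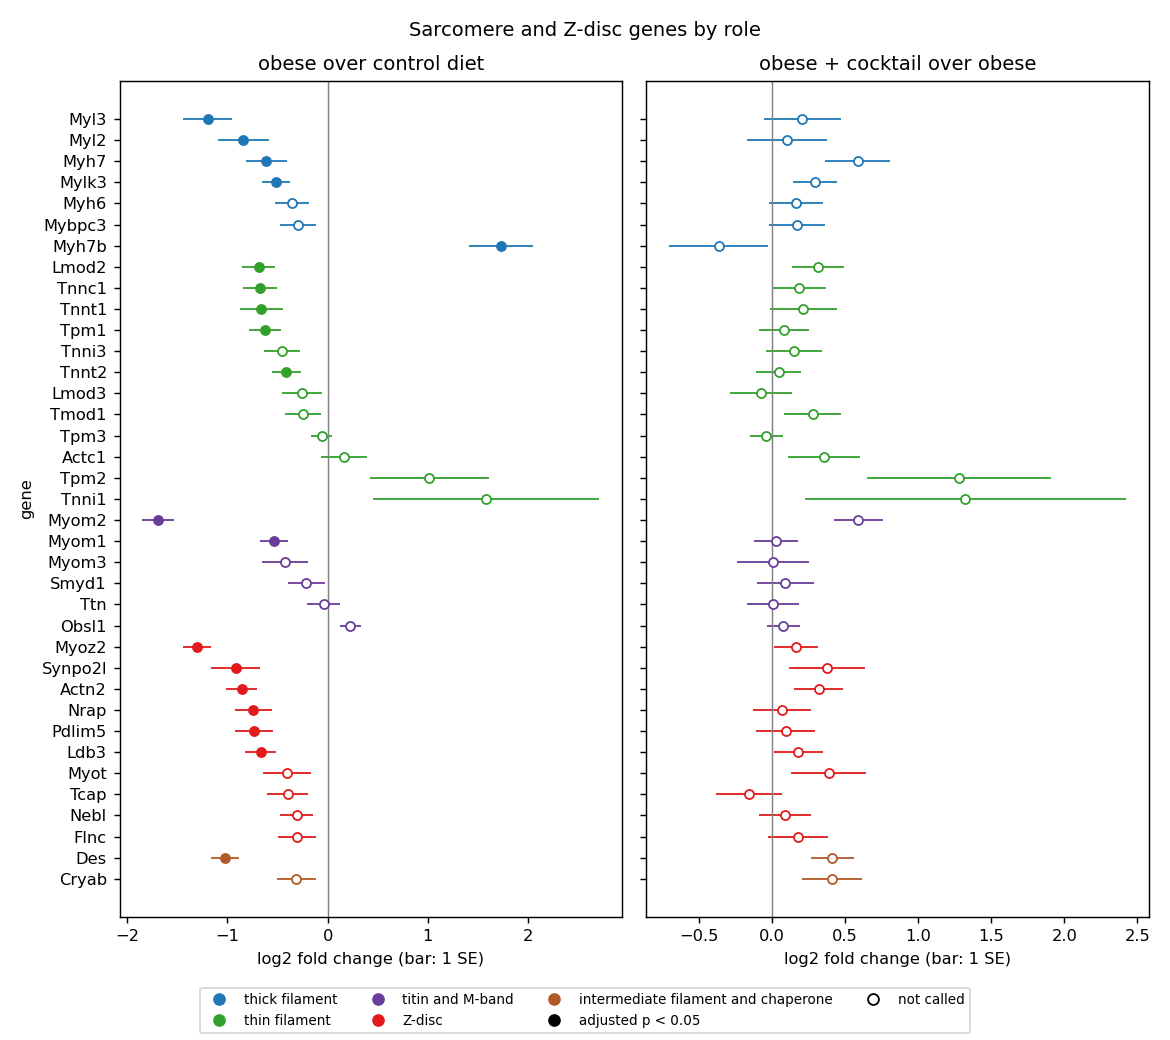
Log2 fold change (dot) with 1 standard error (bar) of each sarcomere gene, ordered by role, for obese over control diet on the left and obese + cocktail over obese on the right, under TMM scaling. In the left panel 19 genes are filled (adjusted p under 0.05), with Myom2 lowest at -1.69 and Myh7b highest at 1.73, and scaling by library totals leaves 5 lower and 5 higher. In the right panel no gene is filled.

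TMM factors were above 1 in every obese library and below 1 in every control-diet library, and taking library totals alone moved the median of all genes up by 0.42 on the log2 scale. Of the 37 genes, 24 kept their sign under all 4 scalings and 13 changed it, being negative under TMM and positive under library totals (Myh6, Mybpc3, Tpm3, Tmod1, Lmod3, Ttn, Myom3, Smyd1, Tcap, Nebl, Myot, Flnc and Cryab). As a share of all counts, the 37 genes took 10.9 to 11% in cocktail libraries, 9.69 to 10.9% in obese libraries and 8.41 to 9.25% in control-diet libraries. As a share of counts outside the mitochondrial chromosome, they took 13.2 to 14.1%, 12.3 to 14.2% and 11.7 to 13.3%. On that scale the obese and control-diet ranges overlapped. Both shares are weighted by titin. Titin alone held 55.7 to 58.9%, 59.6 to 62.8% and 52.0 to 55.6% of the 37 genes' CPM in cocktail, obese and control-diet libraries. With the intronic share as a covariate, 1 sarcomere gene was called, Myom2 (lower), and 121 genes were called of all those tested. Because that share did not overlap between the groups, it and the diet cannot be told apart.

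**Figure D2:**
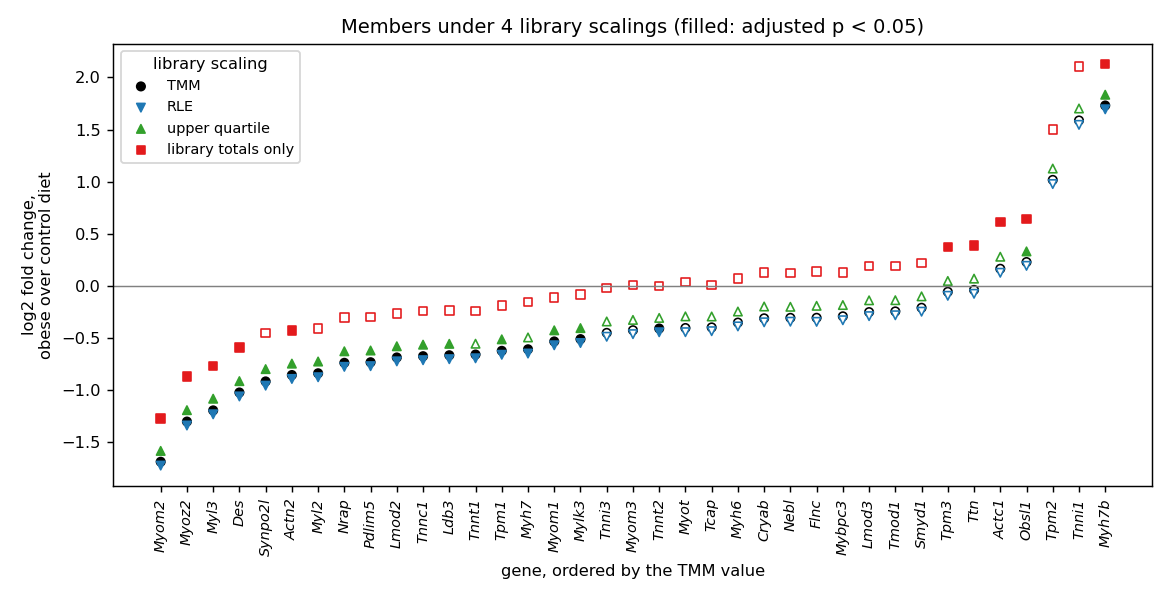
Log2 fold change of obese over control diet for each sarcomere gene (x axis, ordered by the TMM value) under TMM, RLE (median of ratios), upper-quartile and library-total scaling, with filled symbols for adjusted p under 0.05. Myom2, Myoz2, Myl3, Des and Actn2 are filled and below 0 and Myh7b is filled and above 0 under all 4, whereas 13 genes cross 0 between scalings.

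Promoters of 3 members are shown because they hold muscle motifs and their genes differ in response: Myoz2 and Myl3 were lower in obese hearts under all 4 scalings and Actc1 was not called under TMM. Each runs from 250 bases before to 50 after the RefSeq start (GRCm38.p6), with motif matches in capitals.
Myoz2 promoter: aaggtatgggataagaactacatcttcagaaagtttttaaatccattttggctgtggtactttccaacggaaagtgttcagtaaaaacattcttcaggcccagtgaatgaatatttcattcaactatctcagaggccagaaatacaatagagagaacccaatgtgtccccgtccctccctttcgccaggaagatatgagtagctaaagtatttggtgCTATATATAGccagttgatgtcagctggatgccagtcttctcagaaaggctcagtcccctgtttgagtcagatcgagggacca
Myl3 promoter: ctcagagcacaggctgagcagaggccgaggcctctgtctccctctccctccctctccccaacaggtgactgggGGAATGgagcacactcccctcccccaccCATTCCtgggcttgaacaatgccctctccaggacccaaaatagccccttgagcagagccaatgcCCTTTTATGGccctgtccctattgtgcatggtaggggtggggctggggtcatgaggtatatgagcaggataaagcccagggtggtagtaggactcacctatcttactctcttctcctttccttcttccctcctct
Actc1 promoter: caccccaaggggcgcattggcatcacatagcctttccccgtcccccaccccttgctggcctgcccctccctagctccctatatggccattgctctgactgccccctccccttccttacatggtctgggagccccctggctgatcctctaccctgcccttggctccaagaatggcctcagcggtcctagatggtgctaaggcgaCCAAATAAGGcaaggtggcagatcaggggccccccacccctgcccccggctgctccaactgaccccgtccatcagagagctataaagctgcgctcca
They lie at chr3:123034938-123035237 (minus strand), chr9:110763428-110763727 (plus strand) and chr2:114052826-114053125 (minus strand). In that order, the capitals mark a match to the MEF2 site pattern, 2 CATTCC matches with a CArG box, and a CArG box. On both strands, CATTCC occurred in 10 of the 32 member promoters found in RefSeq (31.2%), against 14.7% of 32851 promoters, the CArG box in 4 (12.5%) against 1.63%, and the MEF2 site in 5 (15.6%) against 3.19%. No match overlapped another motif's, and a match is a run of letters, not a bound site. The MEF2 site matches of Myoz2 and Myom3 start at -33 and -35 from the RefSeq start. Whether these are MEF2 sites or other AT-rich elements, such as a TATA box, was not tested.

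Thick-filament genes held the single rise called among the 37. Under TMM scaling, 4 of 7 were lower in obese hearts (Myl3, Myl2, Myh7 and Mylk3) and 1 was higher (Myh7b). Shares lower and higher were 15.7% and 14.4% among all genes, and 50.6% and 6.11% among genes of at least 100 CPM. Under library totals only Myl3 and Myh7b were called among the 7. Myh7b encodes a myosin heavy chain of slow muscle and heart, and lies at chr2:155611212-155634307 (GRCm38, plus strand). Myh7b had 134, 79.0 and 70.6 CPM in the obese hearts given the cocktail, 177, 136, 51.5 and 123 CPM in obese hearts and 33.7, 37.9, 39.0 and 36.2 CPM in control-diet hearts. Every obese and every cocktail library lay above every control-diet library, and obese replicate 3 was the lowest of the obese group. Myh7b was 3.32-fold higher in obese than in control-diet hearts (log2 fold change 1.73 ± 0.32, SE, edgeR adjusted p = 0.00295). Its neighbour on the opposite strand, Trpc4ap, shares 37 exonic bases with it, held 103% of its counts and was lower in obese hearts (log2 fold change -0.61, edgeR adjusted p = 0.00129). No source used here says whether reads were counted by strand. As a percentage of the summed CPM of Myh6, Myh7 and Myh7b, Myh7b made up 0.438 to 0.754% in cocktail libraries, 0.354 to 1.14% in obese libraries and 0.155 to 0.248% in control-diet libraries.

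Myl3 had 1103, 1044 and 590.4 CPM in the obese hearts given the cocktail, 888, 716, 532 and 1025 CPM in obese hearts and 1949, 1269, 1817 and 2212 CPM in control-diet hearts. Myl3 encodes the ventricular essential light chain, which supports the myosin lever arm, and lies at chr9:110741861-110769798 (GRCm38, plus strand). It was 2.29-fold lower in obese than in control-diet hearts with no overlap between the groups (log2 fold change -1.20 ± 0.25, edgeR adjusted p = 0.00365). Myl2 had 2313, 1945 and 1191 CPM in the obese hearts given the cocktail, 1867, 1539, 1139.5 and 2219.6 CPM in obese hearts and 3435, 2059, 2915 and 3708 CPM in control-diet hearts. Myl2, the ventricular regulatory light chain, was lower in obese hearts by 0.84 on the log2 scale (edgeR adjusted p = 0.0240), with control-diet replicate 2 inside the obese range. The call was lost without control-diet replicate 1 or 4 or obese replicate 2 or 3. Mylk3 had 237, 297 and 316 CPM in the obese hearts given the cocktail, 236, 192, 255 and 242 CPM in obese hearts and 390.2, 281, 329 and 319 CPM in control-diet hearts. Mylk3, the cardiac kinase that phosphorylates Myl2, was lower in obese than in control-diet hearts with no overlap (log2 fold change -0.51 ± 0.14, edgeR adjusted p = 0.0154), a call lost without control-diet replicate 1. The light chains and their kinase were thus among the thick-filament genes called lower, although Myl2 and Mylk3 were not called under library totals.

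Myh6 had 16497, 16018 and 14708 CPM in the obese hearts given the cocktail, 15798, 10661, 13706 and 16055 CPM in obese hearts and 19678, 14124, 19701 and 18347 CPM in control-diet hearts. Myh6 did not pass the test in the main fit (log2 fold change -0.35 ± 0.17, edgeR adjusted p = 0.135), and its sign turned under library totals (0.07). It was called lower by DESeq2 (-0.39, DESeq2 adjusted p = 0.0448) and without control-diet replicate 2 (-0.48, edgeR adjusted p = 0.0350). Myh7 had 1155, 1627 and 1345 CPM in the obese hearts given the cocktail, 921, 1127, 776 and 841 CPM in obese hearts and 1980.3, 1099, 1056 and 1460.1 CPM in control-diet hearts. Myh7 was lower in obese hearts under TMM scaling (log2 fold change -0.61 ± 0.21, edgeR adjusted p = 0.0396), the groups overlapped, and the call was lost without control-diet replicate 1 or 4, obese replicate 1, 3 or 4, or cocktail replicate 3. Mybpc3, which encodes cardiac myosin-binding protein C, averaged 1351 ± 297 CPM in obese and 1656 ± 225 CPM in control-diet hearts (SD, n = 4 each), a difference that did not pass (edgeR adjusted p = 0.224). Neither Myh6 nor Myh7 was called higher in obese hearts, and the direct test of their ratio is given with the isoform shares.

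The introns of Myh6, Myh7 and Myh7b each hold a microRNA of the miR-208 and miR-499 family, and these are shown because under TMM scaling Myh7b was called higher, Myh7 lower and Myh6 neither. Seeds (bases 2 to 8) are in capitals, and the sequences are from RefSeq on GRCm38.p6.
mmu-miR-208a-3p: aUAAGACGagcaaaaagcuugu
mmu-miR-208b-3p: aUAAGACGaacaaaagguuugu
mmu-miR-499-5p: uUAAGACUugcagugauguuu
They lie at chr14:54949072-54949093 in Myh6, chr14:54975710-54975731 in Myh7 and chr2:155622893-155622913 in Myh7b, outside the exons of their hosts. The first pair share 1 seed, and the miR-499 seed matches it at 6 of 7 positions. Mature microRNAs were not analysed here. In the gene rows of the precursors, Mir208b was higher in obese hearts (log2 fold change 1.38, edgeR adjusted p = 0.00180), unlike its host Myh7. Mir208b lies in an intron of Myh7 and held 0.240% of its counts. Mir208a did not pass (0.71, edgeR adjusted p = 0.180), and Mir499, at 0.0288% of the counts of Myh7b, was not among the genes tested. The intronic share was also higher in obese libraries, and the part of unspliced host RNA in these rows was not tested.

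Under TMM scaling 5 of 12 thin-filament genes were lower in obese hearts (Tnnt2, Tnnt1, Tnnc1, Tpm1 and Lmod2) and 0 were higher, whereas under library totals 0 were lower and 2, Tpm3 and Actc1, were higher. Among all genes 15.7% were lower under TMM scaling (50.6% of those of at least 100 CPM), and 38.1% were higher under library totals. Lmod2 encodes leiomodin, which lengthens thin filaments at their pointed ends. Lmod2 had 288, 375 and 266 CPM in the obese hearts given the cocktail, 273, 228, 202 and 293 CPM in obese hearts and 481, 318, 409.8 and 396 CPM in control-diet hearts. Obese libraries lay wholly below control-diet libraries (log2 fold change -0.69 ± 0.16, edgeR adjusted p = 0.00795). Tnnc1 had 459, 425 and 345 CPM in the obese hearts given the cocktail, 396, 393, 254 and 399 CPM in obese hearts and 619.9, 455, 565 and 663 CPM in control-diet hearts. Tnnc1 encodes the calcium sensor of the cardiac troponin complex and was lower in obese hearts with no overlap (log2 fold change -0.68 ± 0.17, edgeR adjusted p = 0.0108), obese replicate 3 standing below the other obese libraries. Tpm1 had 1124, 1241 and 1018 CPM in the obese hearts given the cocktail, 1052, 972, 968 and 1269 CPM in obese hearts and 1753, 1206, 1663 and 1949.9 CPM in control-diet hearts. Tpm1, the main cardiac tropomyosin, was lower by 0.63 on the log2 scale (edgeR adjusted p = 0.0117), and control-diet replicate 2 fell inside the obese range.

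Tnnt2 had 2518, 2262 and 1941 CPM in the obese hearts given the cocktail, 2501, 1784, 2098 and 2296 CPM in obese hearts and 2848, 2790.0, 3129 and 2771 CPM in control-diet hearts. Tnnt2, the cardiac troponin T that anchors the complex to tropomyosin, lay lower in each obese library than in any control-diet library, but by little (log2 fold change -0.41 ± 0.14, edgeR adjusted p = 0.0442). That call was lost on leaving out control-diet replicate 1, 3 or 4, obese replicate 2 or 3, or cocktail replicate 2. Tnnt1 had 2.00, 2.67 and 2.75 CPM in the obese hearts given the cocktail, 1.99, 1.98, 1.93 and 2.62 CPM in obese hearts and 2.96, 2.50, 4.55 and 3.46 CPM in control-diet hearts. Tnnt1, the slow skeletal troponin T, was near the bottom of the 37 genes in level and was lower in obese hearts (log2 fold change -0.66 ± 0.21, edgeR adjusted p = 0.0313), with overlapping groups and a call lost without control-diet replicate 3 or 4 or obese replicate 1, 2 or 3. Tnni3 had 1794, 1538 and 1279.6 CPM in the obese hearts given the cocktail, 1598, 1089, 1272 and 1576 CPM in obese hearts and 1984, 1407, 1983 and 2201 CPM in control-diet hearts. Tnni3, the adult cardiac troponin I that holds the filament off at rest, did not pass in the main fit (log2 fold change -0.45 ± 0.18, edgeR adjusted p = 0.0712). Tnni3 was called lower by DESeq2 (-0.49, DESeq2 adjusted p = 0.0249) and with replicate number as a block (-0.46, edgeR adjusted p = 0.0286). The same held without control-diet replicate 2 (-0.60, edgeR adjusted p = 0.0142). The 3 genes of the adult troponin complex therefore had log2 fold changes of one sign under TMM scaling. Only Tnnc1 and Tnnt2 were past the threshold in the main fit, and there was no call under library totals.

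Actc1 had 4555, 5811 and 4653 CPM in the obese hearts given the cocktail, 3725, 3072, 3827 and 4996 CPM in obese hearts and 3847, 2067, 3285 and 4752 CPM in control-diet hearts. Actc1, the cardiac alpha-actin, did not pass under TMM scaling (log2 fold change 0.16 ± 0.23, edgeR adjusted p = 0.616) and was called higher under library totals (0.61, edgeR adjusted p = 0.0109). Its groups overlapped, with control-diet replicate 2 the lowest of all 11 libraries. The pointed-end cap Tmod1 had a log2 fold change of -0.25, the leiomodin Lmod3 of -0.25 and the tropomyosin Tpm3 of -0.06 in obese against control-diet hearts, and all 3 missed the threshold (edgeR adjusted p of 0.322, 0.353 and 0.699).

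Tpm2 had 11, 45.3 and 65.7 CPM in the obese hearts given the cocktail, 8.42, 17.3, 32.1 and 9.06 CPM in obese hearts and 6.20, 8.17, 6.30 and 12.5 CPM in control-diet hearts. Tnni1 had 0.177, 2.19 and 2.67 CPM in the obese hearts given the cocktail, 0, 0.472, 1.81 and 0.408 CPM in obese hearts and 0.396, 0.0287, 0.202 and 0.265 CPM in control-diet hearts. Tpm2 is the beta-tropomyosin, and Tnni1 is the slow skeletal troponin I that the fetal heart uses. Both were highest in cocktail replicates 3 and 2 and obese replicate 3, the libraries with the most atrial RNA, and neither passed in obese against control-diet hearts (edgeR adjusted p of 0.224 and 0.311). With the atrial score of each library in the fit, the log2 fold change of Tnni1 in obese against control-diet hearts was -0.69, and without those 3 libraries it was 0.41, against 1.59 with all libraries. Of the 10 atrial markers, 8 were higher in those 3 libraries than in all 8 others, the exceptions being Bmp10 and Kcna5. Of 14 skeletal muscle markers, 4 were also higher in those 3 libraries than in all others (Myh8, Atp2a1, Actn3 and Myl1, the last of which is on the atrial list too), and 1, Myh4, had 0 counts in every library. The same held for 3 of 7 fibroblast markers (Dcn, Gsn and Tcf21) and 2 of 7 adipocyte markers (Adipoq and Cidec). It held for 0 of the listed cardiomyocyte, endothelial, smooth muscle and erythroid markers. The skeletal markers summed to 131 to 449 CPM in cocktail libraries, 53.5 to 276 CPM in obese libraries and 48.4 to 56.6 CPM in control-diet libraries. Of these sums Acta1, which is also on the further sarcomere list given below, alone had 120 to 361 CPM, 39.1 to 255 CPM and 36.4 to 46.3 CPM. The sums are therefore not a measure of skeletal muscle RNA alone. The part of these markers in Tpm2 and Tnni1 was not tested.

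**Figure D3:**
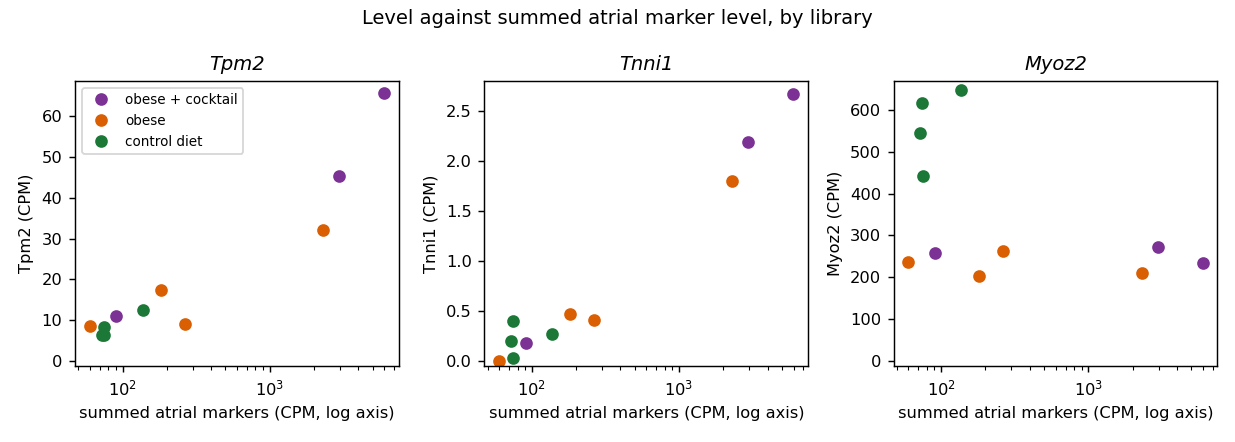
Level of Tpm2, Tnni1 and Myoz2 (CPM) against the summed level of 10 atrial marker genes (CPM, log axis), 1 point per library, coloured by group. Tpm2 and Tnni1 are highest in the 3 libraries with the highest sums, and Myoz2 lies at 234 to 273 CPM in cocktail libraries, 204 to 263 CPM in obese libraries and 443 to 647 CPM in control-diet libraries.

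At the M-band, Myom2 was the sarcomere gene with the smallest p of the 37, and 2 of 6 titin and M-band genes were lower under TMM scaling (Myom2 and Myom1). The share lower was 33.3%, against 15.7% of all genes and 50.6% of genes of at least 100 CPM. Under library totals Myom2 remained lower and Ttn and Obsl1 were higher. Myom2 encodes myomesin 2, which cross-links thick filaments at the centre of the sarcomere, and lies at chr8:15057653-15133541 (GRCm38, plus strand). Myom2 had 1129, 1053 and 886 CPM in the obese hearts given the cocktail, 796, 539.5, 664 and 716 CPM in obese hearts and 2629, 1979, 2184 and 1971 CPM in control-diet hearts. The 3 groups did not overlap at all, with obese libraries lowest, cocktail libraries between and control-diet libraries highest. Means were 679 ± 108 CPM in obese and 2191 ± 308 CPM in control-diet hearts (SD, n = 4 each), a level 3.23-fold lower (log2 fold change -1.69 ± 0.16, edgeR adjusted p = 4.69e-05). With the intronic share as a covariate, Myom2 was called as well (log2 fold change -1.50, edgeR adjusted p = 0.0397). That fit cannot separate the share from the diet, because the share did not overlap between the groups.

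Myom1 encodes the myomesin found across striated muscle. Myom1 had 1129, 1099 and 1004 CPM in the obese hearts given the cocktail, 1213, 888, 926 and 1199.7 CPM in obese hearts and 1623, 1316, 1525 and 1661 CPM in control-diet hearts. Obese libraries lay below control-diet libraries without overlap (log2 fold change -0.53 ± 0.14, edgeR adjusted p = 0.0138). Myom1 shares 207 exonic bases with Myl12a on the opposite strand, a gene with 27.3% of its counts and a log2 fold change of -1.60, so its value is uncertain to that extent. Within a library, the ratio of Myom2 to Myom1 CPM, chosen after the values were seen, was 1.0, 0.958 and 0.882 in cocktail libraries, 0.656, 0.608, 0.717 and 0.597 in obese libraries and 1.62, 1.5, 1.43 and 1.19 in control-diet libraries. This ratio needs no library scaling, and it separates the 3 groups in the same order as the level of Myom2 does.

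Ttn had 61382, 55440.1 and 53423 CPM in the obese hearts given the cocktail, 63677, 51246, 48858 and 61823 CPM in obese hearts and 62032, 49029, 55754 and 65135 CPM in control-diet hearts. Ttn, the giant spring and scaffold, held the largest number of counts of the 37 genes and differed by less than its error (log2 fold change -0.04 ± 0.16, edgeR adjusted p = 0.875), with a sign that turned under upper-quartile scaling (0.07) and library totals (0.39, edgeR adjusted p = 0.00247). Obsl1, an obscurin-like protein linked to titin and the myomesins, had a log2 fold change of 0.23 ± 0.10 (edgeR adjusted p = 0.114). Myom3 was expressed at 1.35 to 2.70 CPM in obese and 2.48 to 3.23 CPM in control-diet hearts, and Smyd1, a methyltransferase needed for myofibril assembly, at 208 to 309 CPM in obese and 207 to 364 CPM in control-diet hearts, and neither passed (edgeR adjusted p of 0.169 and 0.400). The M-band calls thus rested on the 2 myomesins Myom1 and Myom2.

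Z-disc genes all had negative log2 fold changes under TMM scaling, from -1.30 to -0.31, and 6 of 10 passed (Myoz2, Actn2, Synpo2l, Nrap, Pdlim5 and Ldb3). The share lower was 60%, against 15.7% of all genes and 50.6% of genes of at least 100 CPM, whose median was -0.38. Of all genes 43.2% had negative values. A difference of the Z-disc genes from these backgrounds was not tested. Under library totals Tcap, Nebl, Myot and Flnc turned positive without passing, and Myoz2 and Actn2 were the calls left. Myoz2 encodes calsarcin-1, which binds alpha-actinin and the phosphatase calcineurin at the Z-disc, and lies at chr3:123006206-123035015 (GRCm38, minus strand). Myoz2 had 258, 273 and 234 CPM in the obese hearts given the cocktail, 236, 204, 209 and 263 CPM in obese hearts and 616, 443, 545 and 647 CPM in control-diet hearts. Both obese groups lay wholly below the control-diet libraries, and Myoz2 was 2.47-fold lower in obese than in control-diet hearts (log2 fold change -1.30 ± 0.14, edgeR adjusted p = 0.000129). Actn2 encodes the alpha-actinin that ties thin filaments together in the Z-disc, and lies at chr13:12269426-12340760 (GRCm38, minus strand). Actn2 had 1134, 1257 and 1110.4 CPM in the obese hearts given the cocktail, 996, 834, 809 and 1104 CPM in obese hearts and 1942, 1320.4, 1623 and 1897 CPM in control-diet hearts. It was 1.81-fold lower in obese hearts without overlap (log2 fold change -0.86 ± 0.16, edgeR adjusted p = 0.00186). The ratio of Myoz2 to Actn2 CPM was also chosen after the values were seen. It was 0.211 to 0.227 in cocktail libraries, 0.237 to 0.258 in obese libraries and 0.317 to 0.341 in control-diet libraries. The groups did not overlap in it either, but cocktail libraries were lowest. In the ratio of Myom2 to Myom1, obese libraries were lowest.

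Ldb3 had 748, 888 and 755 CPM in the obese hearts given the cocktail, 735, 632, 618 and 825 CPM in obese hearts and 1245, 849, 1104 and 1268 CPM in control-diet hearts. Ldb3 (Cypher), a PDZ-LIM adaptor of alpha-actinin, was lower in obese than in control-diet hearts (log2 fold change -0.67 ± 0.15, edgeR adjusted p = 0.00677). Pdlim5 had 308, 354 and 336 CPM in the obese hearts given the cocktail, 366, 231, 278 and 370.1 CPM in obese hearts and 559, 382, 464 and 669 CPM in control-diet hearts. Pdlim5, another PDZ-LIM protein, was lower in obese than in control-diet hearts (log2 fold change -0.73 ± 0.19, edgeR adjusted p = 0.0113). Nrap had 609, 647 and 567 CPM in the obese hearts given the cocktail, 588, 710.5, 375 and 643 CPM in obese hearts and 1012, 788, 939.7 and 1129 CPM in control-diet hearts. Nrap, an anchor of actin at nascent myofibrils and cell ends, was lower in obese than in control-diet hearts (log2 fold change -0.74 ± 0.18, edgeR adjusted p = 0.00936). Each obese library lay below each control-diet library in these 3 genes. Synpo2l had 96.0, 183 and 170.4 CPM in the obese hearts given the cocktail, 101, 136, 104 and 121 CPM in obese hearts and 234, 141, 185 and 311 CPM in control-diet hearts. Synpo2l, a Z-disc actin-bundling protein, showed the same separation (log2 fold change -0.92 ± 0.24, edgeR adjusted p = 0.0140). The remaining Z-disc genes, with values of -0.40 for the titin cap Tcap, -0.31 for the nebulin relative Nebl, -0.41 for Myot and -0.31 for the filamin Flnc, missed the threshold (edgeR adjusted p from 0.160 to 0.233).

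Des encodes desmin, the intermediate filament that links Z-discs to each other and to the cell membrane, and lies at chr1:75360329-75368579 (GRCm38, plus strand). Des had 711, 715 and 672 CPM in the obese hearts given the cocktail, 532, 490.3, 486 and 591 CPM in obese hearts and 1164, 829.6, 1079.7 and 1199 CPM in control-diet hearts. The 3 groups did not overlap, with obese libraries lowest and control-diet libraries highest. Des was 2.04-fold lower in obese than in control-diet hearts (log2 fold change -1.03 ± 0.14, edgeR adjusted p = 0.000375). Cryab had 629, 675 and 519.9 CPM in the obese hearts given the cocktail, 475, 392, 404 and 557 CPM in obese hearts and 649, 364, 559 and 698 CPM in control-diet hearts. Cryab, the alpha-B-crystallin chaperone of desmin, did not pass and its groups overlapped (log2 fold change -0.31 ± 0.19, edgeR adjusted p = 0.231).

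**Figure D4:**
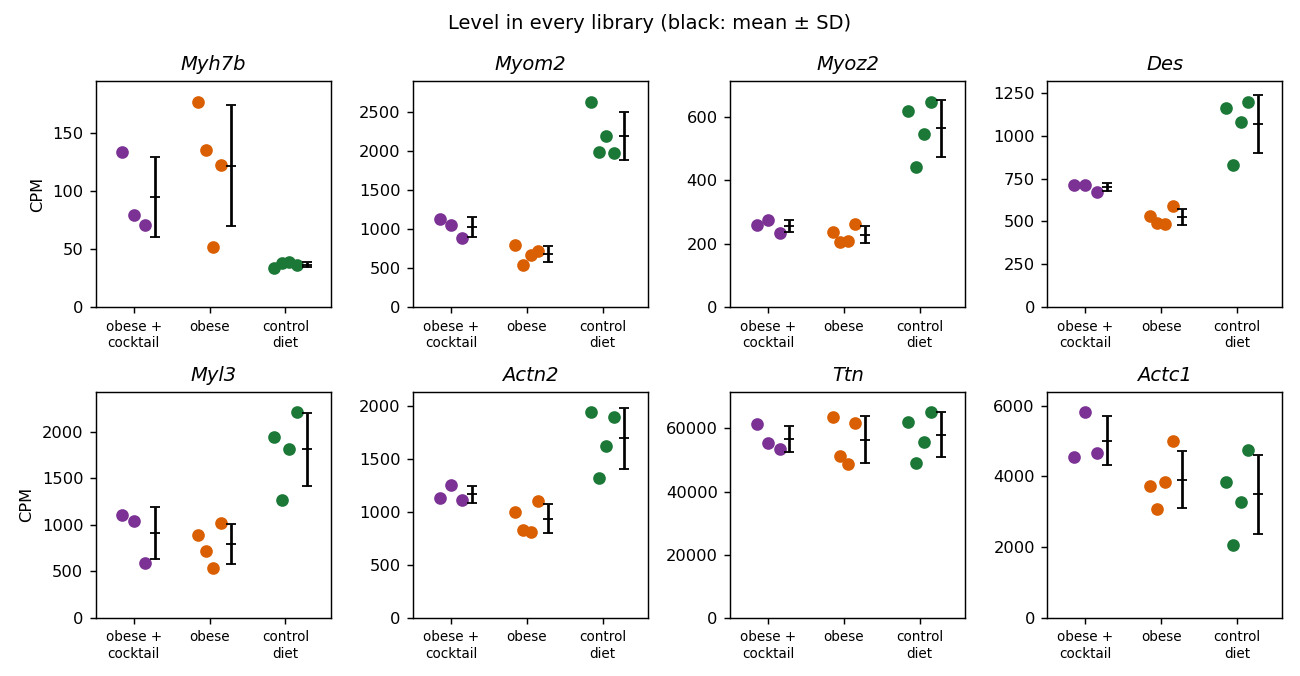
TMM-scaled CPM of 8 sarcomere genes in every library (points), with mean ± SD in black, for obese + cocktail, obese and control diet. Control-diet libraries stand above both obese groups in Myom2, Myoz2, Des, Myl3 and Actn2 and below both in Myh7b, while the groups overlap in Ttn and Actc1.

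The share of a fetal or slow isoform in its protein family was compared in 9 tests, and the design left no room for a single share to pass: fully separated groups would give 0.257 after adjustment. The values are therefore a description. Myh7 made up 6.54, 9.22 and 8.38% of Myh7 + Myh6 counts in cocktail libraries, 5.51, 9.56, 5.36 and 4.98% in obese libraries and 9.14, 7.22, 5.09 and 7.37% in control-diet libraries. Means were 6.35 ± 2.15% in obese and 7.21 ± 1.66% in control-diet hearts (SD, n = 4 each), a difference that a 2-sided exact permutation test did not distinguish from 0 (p = 0.600, adjusted over 9 tests 0.675). Tnni1 made up 0.00989, 0.142 and 0.208% of Tnni1 + Tnni3 counts in cocktail libraries, 0, 0.0433, 0.142 and 0.0259% in obese libraries and 0.0200, 0.00204, 0.0102 and 0.0120% in control-diet libraries (obese against control diet, exact permutation p = 0.200). Tnnt1 averaged 0.113% of Tnnt1 + Tnnt2 counts in cocktail libraries, 0.0991% in obese libraries and 0.116% in control-diet libraries (obese against control diet, exact permutation p = 0.314). Adjusted p over the 9 tests of 3 shares ran from 0.566 to 0.914, and with 4 libraries against 4 the smallest p possible is 0.0286. The Tnni1 count of obese replicate 1 was 0, which allows a share of up to 0.00322% (3 counts, counting error only). The high Tnni1 shares were those of cocktail replicates 2 and 3 and obese replicate 3.

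**Figure D5:**
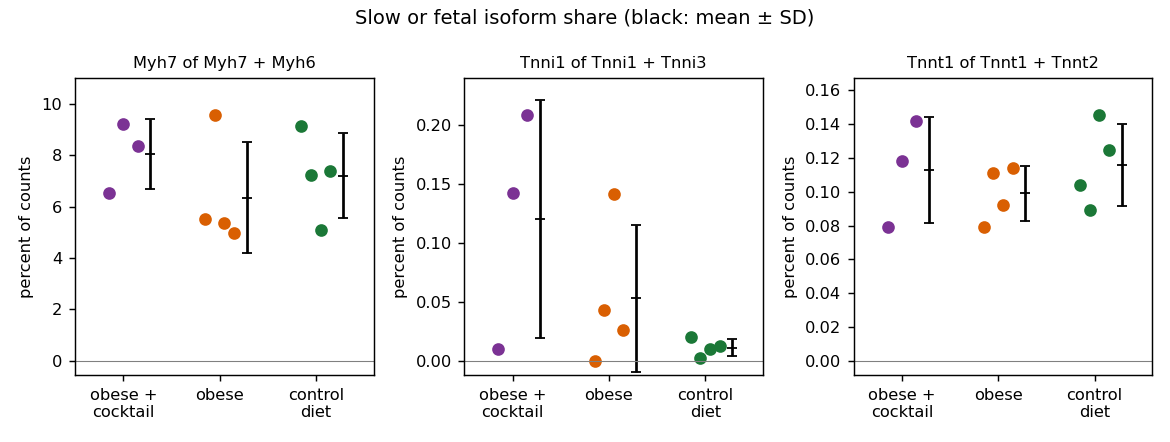
Slow or fetal isoform counts as a percent of slow plus adult counts, per library (points) with mean ± SD, for Myh7 of Myh7 + Myh6, Tnni1 of Tnni1 + Tnni3 and Tnnt1 of Tnnt1 + Tnnt2. The groups overlap in every panel, and the 3 highest Tnni1 shares belong to the 3 libraries with the most atrial RNA.

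Cocktail-treated obese hearts were compared with obese hearts in the same model, and 0 of the 37 genes was called (edgeR's quasi-likelihood test, 0% of all genes called higher and 0% called lower). Limma voom also called 0 genes in all, DESeq2 called 132 genes but 0 of the 37, and 3 of the 37 had an unadjusted p under 0.05, against 10.2% of all genes. The median log2 fold change of the 37 was 0.17, against -0.01 over all genes and 0.10 over genes of at least 100 CPM. Of the 37 values 33 were positive, whereas 50.8% of all genes had negative values. The 37 genes share libraries and are not independent, and a difference from these backgrounds was not tested. In 4 genes every cocktail library lay above every obese library, Myh7, Myom2, Actn2 and Des, and in 0 wholly below, against 4.68% and 5.45% of all genes. Myom2 had the smallest p, with a log2 fold change of 0.59 ± 0.17 that did not pass the adjustment (edgeR adjusted p = 0.381). Des (0.41 ± 0.15, edgeR adjusted p = 0.409), Myh7 (0.59 ± 0.22, edgeR adjusted p = 0.418) and Cryab (0.41 ± 0.21, edgeR adjusted p = 0.519) also missed the threshold, as did Tpm2 (1.28 ± 0.63, edgeR adjusted p = 0.523) and Mylk3 (0.29 ± 0.15, edgeR adjusted p = 0.525). Leaving out cocktail replicates 2 and 3 and obese replicate 3, the atrial-rich libraries, turned the Tpm2 value to -0.07.

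Set against the control diet, the cocktail group had 7 of 37 genes lower (Myom2, Myoz2, Des, Myl3, Nrap, Myom1 and Actn2) and 2 higher (Myh7b and Tpm2), against 8.39% and 7.43% of all genes. Among genes of at least 100 CPM, 29.4% were lower and 3.8% higher, and of the 28 sarcomere genes in that class 7 were lower (25%) and 0 higher. The median log2 fold change was -0.33, against 0.05 over all genes and -0.28 over genes of at least 100 CPM. Cocktail libraries lay wholly below control-diet libraries for 10 genes and wholly above for 2, against 14.1% and 13.7% of all genes. The comparison shares its control-diet libraries with obese against control diet, so the values are given side by side. For Myom2 the log2 fold change was -1.10 in the cocktail group (edgeR adjusted p = 0.00225) and -1.69 in the obese group. For Myoz2 it was -1.14 in the cocktail group (edgeR adjusted p = 0.00111) and -1.30 in the obese group. For Des it was -0.61 in the cocktail group (edgeR adjusted p = 0.0177) and -1.03 in the obese group. For Myl3 it was -0.99 in the cocktail group (edgeR adjusted p = 0.0280) and -1.20 in the obese group. For Myh7b it was 1.37 in the cocktail group (edgeR adjusted p = 0.0222) and 1.73 in the obese group. Tpm2 overlapped between the groups (2.30 ± 0.64, edgeR adjusted p = 0.0421), and it, Nrap, Myom1 and Actn2 sat just inside the threshold (edgeR adjusted p from 0.0386 to 0.0464). These 4 calls were lost without control-diet replicate 1, 3 or 4 or cocktail replicate 2 or 3, among others. With the atrial score in the fit the Tpm2 value was 0.62 (edgeR adjusted p = 0.269), so its call was lost. Leaving out the 3 atrial-rich libraries, which left 1 cocktail library, gave a Tpm2 value of 0.42. The call was also lost for Des without control-diet replicate 1 or cocktail replicate 3, for Myl3 without control-diet replicate 1, 3 or 4 or cocktail replicate 3, and for Myh7b without control-diet replicate 1 or 4 or cocktail replicate 1. The count lower moved to 2 without control-diet replicate 1 or cocktail replicate 3, to 3 without control-diet replicate 3 or 4, to 4 without cocktail replicate 1 or 2, and to 12 without control-diet replicate 2. Without the 3 atrial-rich libraries, which left 1 cocktail library, 0 were lower and 1 higher while the median was -0.31, and calls over all genes numbered 378, against 3760 with all libraries. Under library totals 3 were lower and 6 higher, against 1.64% and 29.1% of all genes.

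A further list of 48 sarcomere and Z-disc genes was read in the same fit, of which 47 were tested, and in obese against control-diet hearts 17 were lower and 4 higher under TMM scaling, against 6 lower and 15 higher under library totals. Among all genes the shares were 15.7% and 14.4% under TMM scaling, and among genes of at least 100 CPM 50.6% and 6.11%. The median log2 fold change of the list was -0.30, against 0.11 over all genes and -0.38 over genes of at least 100 CPM. The lowest p among those lower belonged to Xirp1, an actin-binding protein of the intercalated disc, with 238, 201, 193 and 254 CPM in obese and 509, 408, 487 and 572 CPM in control-diet hearts (log2 fold change -1.16 ± 0.13, edgeR adjusted p = 0.000213). The ubiquitin ligase Trim54 (-1.001, edgeR adjusted p = 0.000824), the kelch protein Klhl41 (-0.84, edgeR adjusted p = 0.00143) and the Z-disc LIM protein Csrp3 (-1.27, edgeR adjusted p = 0.00149) followed. Pdlim7 was the smallest-p gene among those higher, with 29.6, 34.4, 22.5 and 27.7 CPM in obese and 13.6, 11.9, 14.8 and 17.8 CPM in control-diet hearts (log2 fold change 0.97 ± 0.15, edgeR adjusted p = 0.000724), followed by the kinase Speg (0.60, edgeR adjusted p = 0.0115), the tropomyosin Tpm4 (0.48, edgeR adjusted p = 0.0277) and the ligase Trim55 (0.42, edgeR adjusted p = 0.0290).

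Per kilobase of exon, Myh6 had 2089.7 CPM per kb in obese and 2671 CPM per kb in control-diet hearts, and Actc1 had 2413 CPM per kb in obese and 2155 CPM per kb in control-diet hearts. These were the 2 highest levels of the 37 genes in both groups. At the other end Tnnt1, Myom3 and Tnni1 were each under 2 CPM per kb in every group. Ttn, the longest gene, stood at 483 CPM per kb in obese and 496 CPM per kb in control-diet hearts, rank 8 of the 37 on that scale in control-diet hearts.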

How the data were processed

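Total RNA of mouse hearts was sequenced, per the labels' protocols, with paired reads. The submitters' processing notes name cutadapt, HISAT2, StringTie and GRCm38, with no versions or roles. The authors deposited whole-number values per Ensembl gene, analysed here as counts. No source used here gives the annotation, the counting settings or the use of strand, or says whether the counts are counted reads or estimates from coverage. Of 55487 identifiers, 55227 were named from GENCODE M21 (GRCm38) and 260 were not.

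From the deposited counts, genes were filtered with filterByExpr of edgeR 4.0.16 (minimum count 10, minimum total 15), leaving 23779. Library sizes were scaled by TMM, and 11 libraries in 3 groups were fitted in 1 model with edgeR's robust quasi-likelihood fit in R 4.3.3. P-values were adjusted by Benjamini-Hochberg over all genes, with a threshold of 0.05. Standard errors are the absolute log2 fold change over the square root of F, and log2 CPM used a prior count of 1. CPM used the totals of the filtered genes times the TMM factors. Isoform shares were compared by 2-sided exact permutation tests over libraries, 9 in all.

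The sarcomere genes and lists, and the rule for naming genes, were chosen with earlier results of these data known. Values in every library are given for the 16 called genes of smallest p and for Myh6, Myh7, Myh7b, Tnni1, Tnni3, Tnnt1, Tnnt2, Ttn, Actc1 and Des, for the 6 smallest p where no gene was called, and other genes by means, ranges or folds. Of the further list, the 4 higher and 4 lower with smallest p were named. Alternatives were other scalings, filters and gene classes, DESeq2 1.42.0, limma 3.58.1 voom, the 2 groups alone, a replicate block, the intronic share or an atrial score as a covariate, and leaving out libraries. One was chosen after seeing the data, the fit of genes of at least 100 CPM alone. The fit was also run on simulated counts with 90 genes changed by 1 and 110 by 2 on the log2 scale. It recovered 91.1% and 100% of them, with 8 false calls. The simulated spread was set below the fitted one and few genes were changed, so this run does not bear on the choice of scaling.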

Additional observations from a re-analysis of the deposited data

Results flagged for a closer look

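Of 74 groups of 4 libraries (37 genes in obese and in control-diet hearts), 2 held a library that stood apart from the rest by Dixon's test at the 95% level, where chance flags about 1 in 20 groups. Tnnc1 had 254 CPM in obese replicate 3, the other obese libraries lying at 393 to 399 CPM. Tnnt1 had 2.62 CPM in obese replicate 4, the other 3 lying at 1.93 to 1.99 CPM.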

How the results depend on the processing

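In obese against control-diet hearts, 18 genes lower and 1 higher became 5 and 5 under library totals (median log2 fold change -0.000193; further list 6 lower, 15 higher), 8 and 2 in the fit of genes of at least 100 CPM (-0.16; further list 6 and 11), and 1 and 0 with the intronic share as a covariate (0.0901; further list 0 and 0). The count higher was 2 under upper-quartile scaling, which moved the median of all genes by 0.10, and under the 1 CPM filter, the protein-coding fit and the atrial covariate. Without the 3 atrial-rich libraries the further list had 11 lower. Leaving out 1 library gave 14 to 22 lower, 1 to 2 higher (2 without obese replicate 3) and, in the further list, 10 to 19 lower (10 without control-diet replicate 1, 11 without control-diet replicate 4 or obese replicate 2) and 2 to 4 higher (2 without control-diet replicate 2 or 3 or obese replicate 4). For cocktail against obese hearts, 0 of 37 was called in any setting, and the median was -0.0495 with the intronic covariate. For cocktail against control diet, 7 lower and 2 higher became 3 and 6 under library totals (median 0.11), 2 and 1 with the intronic covariate (0.0248), 13 lower by DESeq2, 4 lower in genes of at least 100 CPM, 2 lower with the atrial covariate, 0 lower and 1 higher without the atrial-rich libraries, which left 1 cocktail library assumed to vary like the other groups, and 1 higher with no low-count filter. Leaving out 1 library gave 2 to 12 lower and 0 to 2 higher.

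No label pairs libraries by replicate number, and the main fit used no pairing. Of 10 same-numbered pairs, with correlations of -0.23 to 0.40, 3 exceeded 0.1, and 6 of 11 libraries correlated best with their own number. The highest were 0.40 for obese and cocktail replicate 1 and 0.34 for obese and cocktail replicate 3, against at most 0.19 for pairs of unlike number. Whether these libraries were paired was not tested. With replicate number as a block, 19 genes were lower and 1 higher in obese against control diet, and 4 lower in cocktail against control diet. Among single genes in obese against control diet, the sign turned for Myh6 under library totals (0.0676), the intronic covariate (0.0193) and genes of at least 100 CPM (0.0431), and with the intronic covariate for Myh7 (0.12), Myl2 (0.20), Tnni3 (0.10), Tpm1 (0.0704) and Synpo2l (0.10), for Tnni1 with the atrial covariate (-0.69) and for Actc1 without control-diet replicate 2 (-0.0473). Ttn turned under upper-quartile scaling (0.0683), library totals (0.39), the 1 CPM filter (0.0121), protein-coding genes (0.0665), the intronic (0.34) and atrial (0.0353) covariates, without the atrial-rich libraries (0.0244), in genes of at least 100 CPM (0.36), and without control-diet replicate 4 (0.00921), obese replicate 2 (0.00505) or obese replicate 3 (0.0242), with a range of -0.139 to 0.0242 on leaving out 1 library. Tpm2 turned to -0.0663 in cocktail against obese without the atrial-rich libraries. Isoform shares, in percentage points, without those libraries were -0.138 (Myh7), -0.0132 (Tnni1) and -0.0222 (Tnnt1) for cocktail against obese and -0.661 (Myh7) and -0.00117 (Tnni1) for cocktail against control diet. On leaving out 1 library, the Tnni1 difference of obese against control diet ran from 0.0120 to 0.0592, with 0.0286, the smallest p possible, without obese replicate 1 by the exact test, and the Tnnt1 difference ran from -0.000501 to 0.0307 for cocktail against obese and from -0.0172 to 0.014 for cocktail against control diet. The causes were not tested. The 3 or 4 libraries of a group limit the precision, as does depth for genes of few counts such as Tnni1.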

Other observations

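Antisense transcripts of the 2 main myosin heavy chain genes were higher in obese hearts. Mhrt, an antisense transcript of Myh7 whose exons share 484 bases with it, held 6.09% of the counts of Myh7 and was higher in obese than in control-diet hearts (log2 fold change 1.57, edgeR adjusted p = 0.00111), where Myh7 was lower (-0.61). Gm49130, antisense to Myh6, was also higher (log2 fold change 1.71, edgeR adjusted p = 0.00129) at 0.120% of the counts of Myh6. As strand use is not stated, the 2 members of such a pair cannot be told apart by their reads, and the intronic share, itself higher in obese libraries, moved with these transcripts. Its part was not tested.

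Across the 37 genes, exon length and the log2 fold change of obese over control diet had a Spearman rho of 0.115, against 0.484 across 1038 protein-coding genes of at least 100 CPM and -0.113 across all 23724 tested genes with a length. These are correlations across genes, which share libraries and are not independent replicates. Myh7 and Myh6 transcripts share 5.43% of the 150-base windows of Myh7 exactly, and the assignment of reads from those windows is uncertain.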
